A study of Mus musculus with 460 samples.

Results

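The matricellular genes were a set of 9 among the 48440 genes counted in 460 single cells labelled as CAFs (cancer-associated fibroblasts), and they were chosen by name: Fn1, Postn, Tnc, Tnxb, Sparc, Sparcl1, Thbs1, Thbs2 and Thbs3. All 9 symbols were found once each in the table. The cells came from lung adenocarcinoma of mice of a single strain, and all cells shared this strain, disease state and cell type. There was 1 group, called tCAFs in the labels, and each deposited sample was 1 cell. The labels name no animal, culture, age, sort or batch, so all cells counted as 1 sample. No p-value was computed, and every interval below is an exact 95% interval. Intervals on shares of cells treat the cells as independent draws. Those on ratios of summed counts cover counting error only. None covers variation between animals or cultures.

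Matricellular proteins are secreted into the matrix but act mainly on cells, by binding integrins, syndecans, growth factors and other matrix proteins. Fibronectin, tenascins, periostin, SPARC proteins and thrombospondins are known for being made in wound healing, fibrosis and tumour stroma. Fibronectin and SPARC are also widespread in resting connective tissue, and tenascin X is known from dermal and vascular connective tissue, where its loss causes a form of Ehlers-Danlos syndrome. Levels are given as CPM, the counts of a gene per 1000000 counts of the same cell.

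Cells were compared in 2 classes. In 44.1% of the 460 cells (Clopper-Pearson interval 39.5 to 48.8) the Rgs5 count was above the Pdgfra count, and these are called the Rgs5 class. The other cells, 55.9%, are called the rest. No cell had equal counts. Rgs5 encodes a G protein regulator typical of pericytes, the contractile cells along small vessels, and Pdgfra encodes a receptor typical of fibroblasts. The median levels of these genes were 5064 and 260.3 CPM in the Rgs5 class and 261.6 and 1769 CPM in the rest, which the rule fixes. The class rule is a cut on a ratio, and some cells lay near it. Here 32 cells had Rgs5 at 1 to 2 times Pdgfra, and 39 had Pdgfra at 1 to 2 times Rgs5. Whether the classes are separate types or parts of a scale was not tested. Just inside the limit the median of Postn was 578.3 CPM and just outside it 576.8 CPM, with Tnc at 667 and 829 CPM and Thbs1 at 1796 and 1928 CPM. Fn1 had medians of 10255 and 7553 CPM, Sparc 2709 and 2474, Sparcl1 4254 and 3267, and Thbs2 108.4 and 177.7 CPM. Between these small sets the median of Postn was nearly level, while those of Fn1, Tnc, Sparcl1 and Thbs2 differed more. Wider sets read otherwise for Postn and Fn1. Where log2 of Rgs5 plus 1 over Pdgfra plus 1 was 0 to 2 (55 cells), their medians were 1112 and 6964 CPM. At -2 to 0 (96 cells) they were 502.2 and 7181 CPM. In the same 2 sets Sparcl1 had 3844 and 3143 CPM and Thbs2 104.8 and 227.8 CPM.

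Totals ran from 25029 to 240496 counts per cell, with medians of 76944 in the Rgs5 class and 96654 in the rest. Fibroblast markers summed to medians of 5095 and 12993 CPM in the Rgs5 class and the rest, and pericyte markers to 15519 and 3250 CPM. These lists contain Pdgfra and Rgs5, so the class rule sets part of the difference. Epithelial markers, led by surfactant genes, had median sums of 721.9 and 616.1 CPM (ranges 0 to 21008 and 0 to 24024), leukocyte markers 85.3 and 76.4 CPM (0 to 9168 and 0 to 6090) and endothelial markers 17.8 and 12.96 CPM (0 to 4355 and 0 to 5030). Leukocyte sums had means of 330.1 and 164.5 CPM. Mesothelial markers had median sums of 0 and 8.86 CPM (0 to 9538 and 0 to 887), with means of 82.3 and 51.2 CPM. Among single mesothelial markers the ratio of the Rgs5 class to the rest was 6.04 for Msln, 6.18 for Upk3b and 7.15 for Lrrn4. Upk1b (0.521) and Wt1 (0.475) of the same list went the other way. The ratio was 2.41 for Krt8, 2.71 for Krt18 and 3.73 for Krt19 (epithelium), the last being in both lists. The other epithelial markers stood between 1.13 and 1.67. Msln, Upk3b, Lrrn4, Wt1 and Krt18 were below 10 mean CPM. Upk1b was counted in 26.3% of cells, and the other mesothelial and keratin genes named here in at most 20.7%. The part of such cells or their RNA in the results below was not tested. A further set of columns, 27.6% of the cells, lay where most neighbouring columns were low in the surfactant gene Sftpc, and these held 31.5% of the Rgs5 class and 24.5% of the rest. Another 11 cells expressed posterior Hox genes, and 10 of them were in the rest. The ratios between the classes are given with and without both sets.

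The start regions of 3 members are shown because these genes were past 2-fold between the classes, were counted in most cells and had a RefSeq start. Postn was higher in the Rgs5 class, and Tnc and Thbs2 were lower. Each line gives the 250 bases before a RefSeq start (GRCm38.p6), read 5′ to 3′ on the strand of the gene, and capitals mark matches to the motifs named after the sequences.
Postn, chr3:54360857-54361106, plus strand: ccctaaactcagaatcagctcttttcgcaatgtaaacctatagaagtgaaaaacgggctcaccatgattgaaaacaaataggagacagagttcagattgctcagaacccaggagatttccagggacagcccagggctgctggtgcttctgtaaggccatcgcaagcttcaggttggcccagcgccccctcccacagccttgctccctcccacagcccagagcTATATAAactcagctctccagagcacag
Tnc, chr4:64047016-64047265, minus strand: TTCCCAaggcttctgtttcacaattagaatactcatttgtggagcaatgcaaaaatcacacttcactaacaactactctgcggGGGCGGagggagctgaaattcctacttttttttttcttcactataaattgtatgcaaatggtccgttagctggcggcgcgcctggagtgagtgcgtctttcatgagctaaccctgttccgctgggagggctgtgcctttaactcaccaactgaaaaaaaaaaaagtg
Thbs2, chr17:14694263-14694512, minus strand: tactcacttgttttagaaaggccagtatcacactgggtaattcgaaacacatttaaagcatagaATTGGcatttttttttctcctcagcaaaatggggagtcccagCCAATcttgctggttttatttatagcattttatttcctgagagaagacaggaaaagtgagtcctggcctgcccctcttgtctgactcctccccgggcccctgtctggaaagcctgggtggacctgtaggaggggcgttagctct

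Both strands of each window were searched for 5 motifs, and their share among 32851 such windows of the mouse annotation is given beside each. The TATA box motif was TATATAA, held by 3.04% of windows. The CCAAT box motif was CCAAT, held by 33.8%. The motif of AP-1, the Fos and Jun factor, was TGANTCA, held by 6.75%. The motif of RBPJ, the Notch effector, was TGGGAA, held by 21.6%. The Sp1 motif was GGGCGG, held by 32.7%. No letters of one motif were shared with another in the windows printed. TATATAA stood 28 to 22 bases before the Postn start. It also stood 29 to 23 bases before a second Tnc start, which lies inside the transcript of the start shown. The window of Thbs2 held 2 CCAAT matches, and that of the Tnc start shown held 1 match each to the RBPJ and Sp1 motifs. The windows of Tnxb, with 1 AP-1 match, and of Thbs3, with 1 match each to the CCAAT box, RBPJ and Sp1 motifs, are not printed. No match was found for the window of Sparc or for the other Postn start. RefSeq entries were matched for 6 of the 9 members, and Fn1, Sparcl1 and Thbs1 had none. A match describes letters only. Which start the cells used and the part of any motif in the class differences were not tested.

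All 9 members were measured, at very different levels. The values are molecular barcode counts, and whether these scale with transcript length is not stated. Without length correction Fn1 had the highest median at 6229 CPM, followed by Sparcl1 at 4080 and Sparc at 2582 CPM. The order of these 3 thus depends on the correction. Corrected for exonic length, Sparcl1 had the highest median at 1389 CPM per kb (quartiles 807.5 and 1836), followed by Sparc at 681.5 (519.3 and 831.8) and Fn1 at 533.1 (386.8 and 714.3). Sparcl1 encodes hevin, an anti-adhesive relative of SPARC, and Sparc encodes the collagen-binding protein osteonectin. Fn1 encodes fibronectin, the integrin ligand that cells assemble into fibrils. Next came Thbs1 at 250.8 CPM per kb (84.3 and 577.05), Postn at 141.3 (23.3 and 357.3) and Tnc at 66.3 (19.6 and 172.5). Thbs2 followed at 12.9 CPM per kb (3.32 and 42.005), and the medians of Tnxb and Thbs3 were 0 (upper quartiles 2.02 and 7.28). The quartile ranges of all neighbours in this order overlapped from Sparcl1 down to Thbs2, so no step between neighbours exceeded the spread over cells. Among 9801 genes of at least 10 mean CPM with a known length, mean CPM per kb placed Sparcl1 at rank 10, Sparc at 22, Fn1 at 30, Thbs1 at 55, Thbs2 at 1322, Tnxb at 7036 and Thbs3 at 7412, with Postn and Tnc between Thbs1 and Thbs2.

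Detection split the members into 3 groups. Fn1, Postn, Sparc, Sparcl1 and Thbs1 had a count in 460 of 460 cells, and Tnc in 99.6% (interval 98.4 to 99.9). Thbs2 had a count in 89.8% (86.6 to 92.4), and in 85.7% (82.005 to 88.97) when each cell was thinned to 56586 counts, which leaves out 46 shallower cells. Thbs3 was counted in 48.5% (43.8 to 53.2; 43.2% thinned) and Tnxb in 42.8% (38.3 to 47.5; 37.2% thinned). All 9 were counted together in 87 cells, and the median cell had 8 of them. Sftpc and Lyz2, transcripts of alveolar epithelium and macrophages that fibroblasts and pericytes are not known to make, had a count in 80.9% and 84.8% of the cells. Shares as low as those of Thbs3 and Tnxb are thus not read as expression by themselves, and the part of stray RNA in them was not tested.

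Members also differed in how evenly cells shared them. The 10% of cells with the most Sparc held 17.2% of its summed CPM, those with the most Fn1 19.3%, and those with the most Sparcl1 19.9%. The same share was 29.4% for Postn, 30.3% for Thbs1, 38.3% for Tnc, 44.96% for Thbs2 and 47.2% for Thbs3. For Tnxb it was 81.2%, so a small part of the cells carried most of its RNA. Sparc had the smallest coefficient of variation across cells at 0.361, against 0.462 for Fn1, 0.552 for Sparcl1 and 3.07 for Tnxb. Both measures also hold counting error, which is larger for members with few counts. Over all cells Thbs3 had 933 counts, Tnxb 2456 and Thbs2 10738, against 264193 for Fn1.

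The classes differed in which matricellular genes they used and little in the total. The 9 genes summed to a median of 18001 CPM in the Rgs5 class (quartiles 14961 and 21432) and 18738 CPM in the rest (13753 and 22555), or 1.85% of all counts in each on average. Postn made up 15.4% of this sum in the Rgs5 class and 5.28% in the rest. Thbs1 made up 7.02% and 16.001%, Tnc 2.26% and 7.73%, and Sparcl1 25.3% and 18.4%. Fn1 was 34.5% and 36.4% of it and Sparc 14.1% and 14.2%. The member with the most counts was Fn1 in 67.98% of the Rgs5 class and 83.3% of the rest. It was Sparcl1 in 53 cells of the Rgs5 class and 7 of the rest, Thbs1 in 3 and 14, Sparc in 1 and 14, Postn in 7 and 3, and Tnc in 1 and 5.

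Of the 9 members, 2 were at least 2-fold higher and 3 at least 2-fold lower in the Rgs5 class, by the ratio of mean CPM with 1 CPM added. Among all 9811 genes of at least 10 mean CPM, 3.4% were higher and 4.79% lower by this rule, 8.19% together, and among the 2256 genes of at least 100 mean CPM 8.91% passed in either direction. The median ratio was 0.942 over the members, that of Fn1, and 1.006 over all these genes. At a 1.5-fold limit 6 members passed, Thbs3 being the added one, against 16.6% of genes. The members were chosen with earlier results of these data known, so their share beside that of all genes is not independent evidence. The cells of a class are not replicates, so these are differences between 2 sets of cells of 1 sample. The set of 5 was the same without the columns low in Sftpc and without the 11 posterior cells, with 8.63% and 8% of genes past the fold. Within those columns alone, 4 members passed against 10.3% of genes, and Thbs1 stood at a ratio of 0.510.

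**Figure D1:**
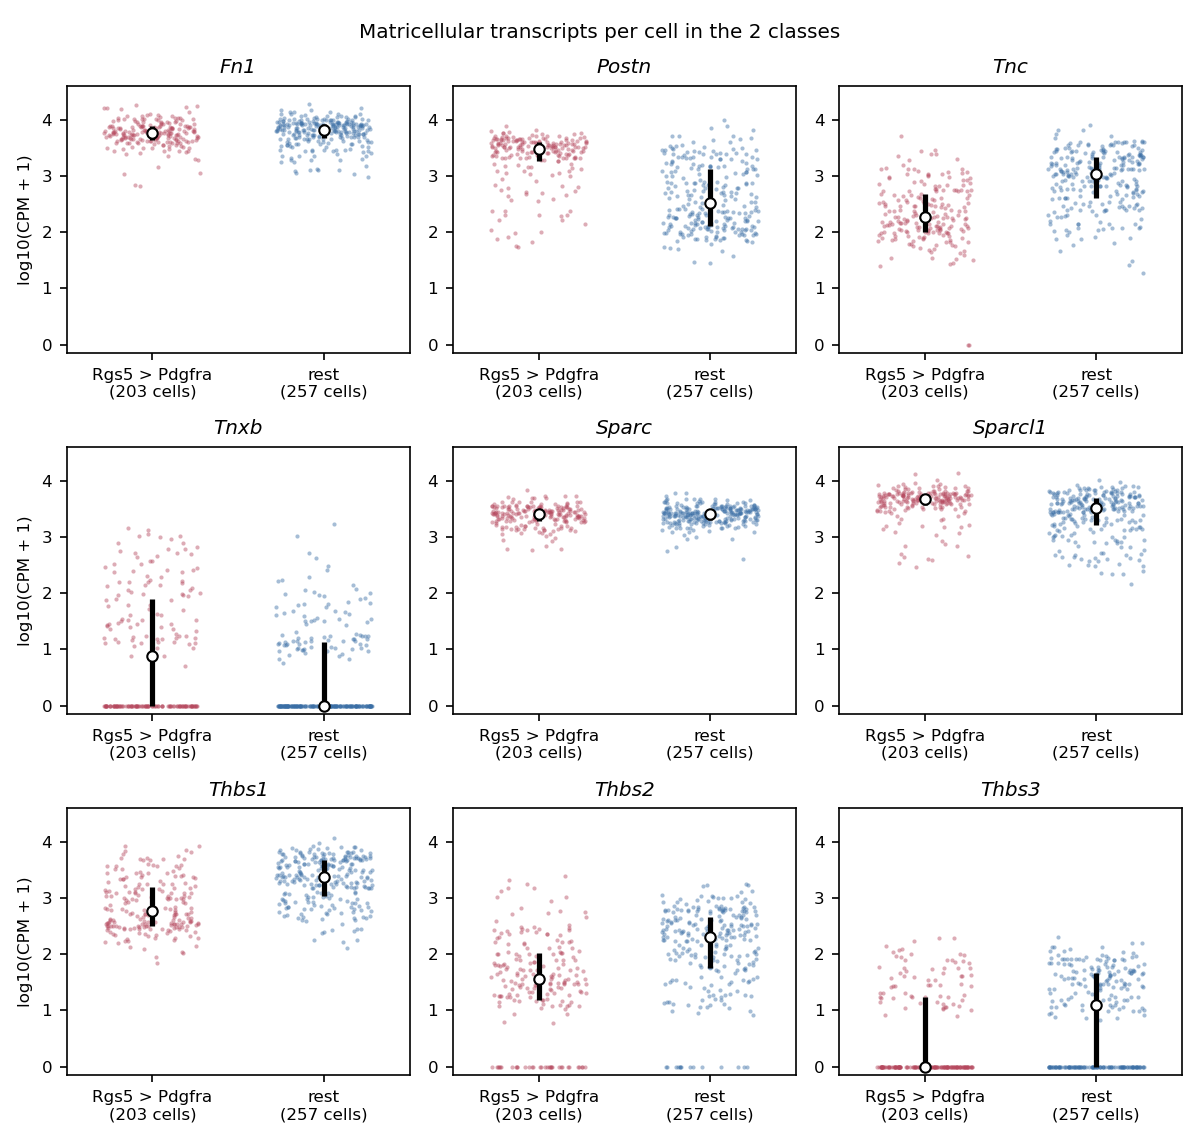
Each panel plots 1 gene as log10(CPM + 1), with a point per cell for cells with Rgs5 above Pdgfra (red) and the rest (blue); white circles are medians and black bars run between quartiles. Postn sits higher in the Rgs5 class and Tnc, Thbs1 and Thbs2 in the rest, while Fn1 and Sparc nearly coincide and Tnxb and Thbs3 have many cells at 0.

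Periostin, a protein that binds collagen and integrins and helps crosslinking, was the abundant member that was higher in the Rgs5 class. Postn ran from 54.5 through a median of 2989 to 7856 CPM in the Rgs5 class and from 26.7 through 333.9 to 9719 CPM in the rest. The ranges overlapped widely, but 91.1% of the Rgs5 class lay above the median of the rest. The ratio of mean CPM was 2.91 (2853 against 978.4 CPM), and the ratio of summed counts was 2.90 with a counting interval of 2.85 to 2.94. In the rest, 78 cells (30.4%) had over 1000 CPM of Postn, against 83.3% of the Rgs5 class, so a Postn-rich minority also existed among cells with more Pdgfra. Without the columns low in Sftpc the ratio was 2.94, and within them 2.84.

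Tenascin C, a large hexameric protein that loosens cell adhesion to fibronectin, was the abundant member with the lowest ratio. Tnc ran from 0 through a median of 186.02 to 5045 CPM in the Rgs5 class and from 18.1 through 1072 to 8052 CPM in the rest. Of the Rgs5 class 10.3% lay above the median of the rest. Mean CPM was 417.1 against 1433, a ratio of 0.291, and the ratio of summed counts was 0.306 (0.299 to 0.314). Over 1000 CPM of Tnc was reached by 10.8% and 51.8% of cells. The ratio was 0.294 without the columns low in Sftpc and 0.287 within them.

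Postn and Tnc set against each other separated most cells. The Postn count was above the Tnc count in 89.2% of the Rgs5 class and in 34.6% of the rest. Postn was above Thbs1 in 76.4% and 14.4%. Raw counts are compared within a cell here, without correction for gene length.

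**Figure D2:**
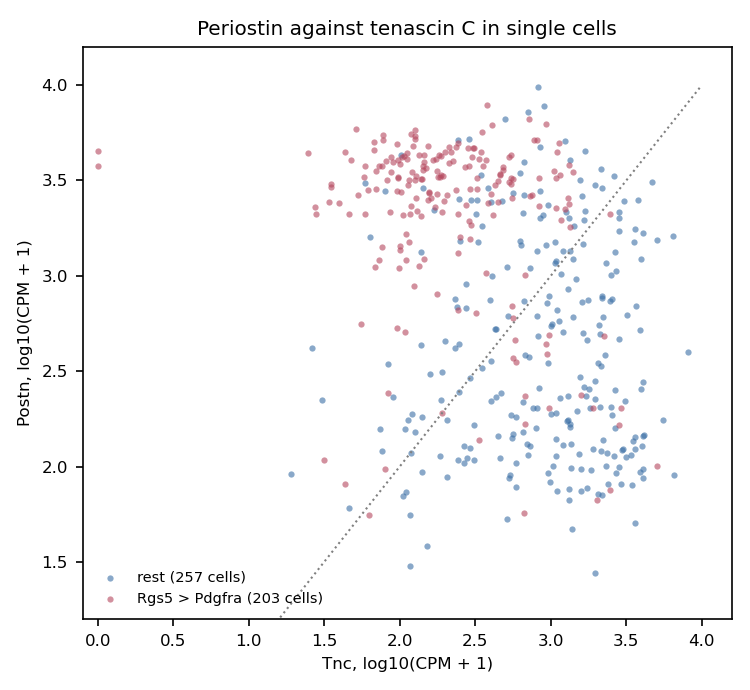
Each point is a cell, with Tnc on the horizontal and Postn on the vertical axis, both as log10(CPM + 1), red for Rgs5 above Pdgfra and blue for the rest; the dotted line marks equal levels. Of the red points 89.2% have more Postn than Tnc counts, against 34.6% of the blue points.

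By mean CPM tenascin X went in the opposite direction to tenascin C, but few cells carried most of it. Tnxb encodes a tenascin that links collagen fibrils, and it was counted in 51.2% of the Rgs5 class (interval 44.1 to 58.3) and 36.2% of the rest (30.3 to 42.4), or 48.5% and 29.2% at thinned depth. Its level ran from 0 through a median of 6.58 to 1422 CPM in the Rgs5 class and from 0 through 0 to 1691 CPM in the rest. Mean CPM was 106.8 against 28.7, a ratio of 3.62. The 10% of cells richest in Tnxb held 69.5% of its summed CPM in the Rgs5 class and 83.8% in the rest. Its median counts per cell were 1 and 0. Over 1000 CPM was reached by 5 cells of the Rgs5 class and 2 of the rest. The ratio was 3.27 without the columns low in Sftpc and 8.63 within them, where the mean of the rest was 8.78 CPM.

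Thbs1 and Thbs2 were lower in the Rgs5 class. They encode trimeric thrombospondins that bind CD36 and CD47 and restrain vessel growth, and thrombospondin 1 is also known to activate latent TGF-beta. Thbs1 ran from 68.5 through a median of 583.1 to 8371 CPM in the Rgs5 class and from 127.5 through 2378 to 11794 CPM in the rest. Mean CPM was 1296 against 2967, a ratio of 0.437, with a ratio of summed counts of 0.426 (0.419 to 0.432). Of the Rgs5 class 17.2% lay above the median of the rest. The ratio was 0.408 without the columns low in Sftpc and 0.510 within them, where it was not past 2-fold.

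Thbs2 ran from 0 through a median of 35.01 to 2447 CPM in the Rgs5 class and from 0 through 204.7 to 1798 CPM in the rest. Its mean CPM was 142.3 against 307.9, a ratio of 0.464, and the 10% of Rgs5-class cells richest in it held 63.8% of its level there. Without the columns low in Sftpc its ratio was 0.474 and within them 0.457. With the class rule applied to thinned counts its ratio was 0.524 and no longer past 2-fold. It was counted in 83.7% (77.9 to 88.5) and 94.6% (91.03 to 96.99) of cells, and in 80.1% and 89.7% at thinned depth.

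Thbs3, a pentameric thrombospondin of skeletal and other connective tissue, was counted in 35.5% (28.9 to 42.5) of the Rgs5 class and 58.8% (52.5 to 64.8) of the rest, or 28.7% and 53.5% at thinned depth. Its highest values were 192.9 and 198.97 CPM and its medians 0 and 11.5 CPM. Mean CPM was 16.5 against 27.4, a ratio of 0.615 that did not pass 2-fold. At thinned depth the ratio was 0.449, and with the class rule on thinned counts 0.458, both past 2-fold. It was 0.563 without the columns low in Sftpc and 0.599 without the posterior cells. A part of its exons (6.59%) overlaps Mtx1 on the other strand, and strand use in counting is not stated, so reads from that part cannot be assigned. Thbs4 had 0 counts in all cells, which allows up to 0.0704 CPM.

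Fibronectin and the SPARC pair passed no 2-fold limit. Fn1 ran from 667.8 through a median of 5757 to 18429 CPM in the Rgs5 class and from 972.6 through 6666 to 18932 CPM in the rest, a ratio of 0.942. Sparc ran from 589.3 through 2535 to 6792 CPM and from 408.5 through 2597 to 6074 CPM, a ratio of 0.987, and the groups overlapped almost fully. Sparcl1 ran from 294.03 through 4700 to 13507 CPM in the Rgs5 class and from 147.2 through 3274 to 10320 CPM in the rest, a ratio of 1.37, and 79.8% of the Rgs5 class lay above the median of the rest. Sparcl1 had more counts than Sparc in 86.2% and 64.6% of cells. Without the columns low in Sftpc the ratios of Fn1, Sparc and Sparcl1 were 0.962, 0.993 and 1.36, and without the posterior cells 0.9195, 0.981 and 1.33.

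**Figure D3:**
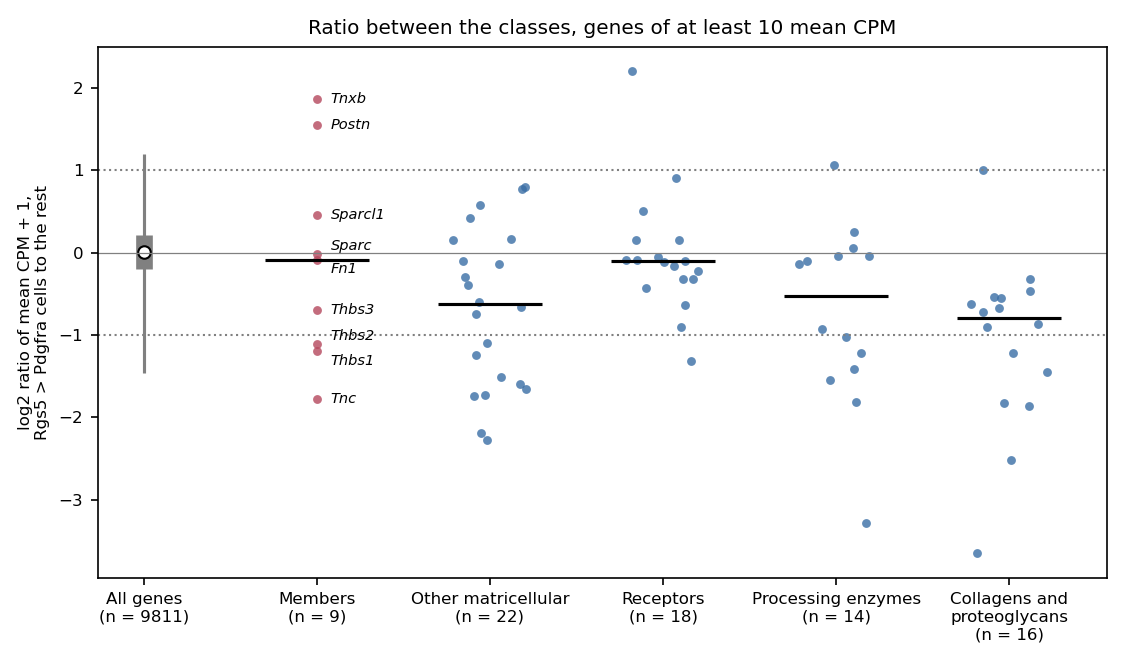
The vertical axis is the log2 ratio of mean CPM + 1 in cells with Rgs5 above Pdgfra to the rest, for genes of at least 10 mean CPM; the grey bars span the middle 50% (thick) and 95% (thin) of all 9811 genes, points are single genes, black lines are list medians and dotted lines mark 2-fold. Tnxb and Postn lie above the upper line and Thbs1, Thbs2 and Tnc below the lower, while the collagen and proteoglycan list has 6 of 16 genes below it and none above.

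Along the ratio of Rgs5 to Pdgfra the change was graded for some members. Cells were placed in 6 bins of log2 of Rgs5 plus 1 over Pdgfra plus 1, from under -4 (30 cells) to over 4 (93 cells). The median of Thbs1 was 3032, 2426, 2023, 1598, 671.4 and 371.1 CPM from the lowest to the highest bin, lower in each bin than in the bin before. Tnc had medians of 1269, 1278, 908.3, 372.2, 217.2 and 136.9 CPM. Postn had 498.4, 234.2, 502.2, 1112, 3246 and 3503 CPM, so most of its difference lay between the bins at 0 to 2 and 2 to 4. Sparc stayed between 2496 and 2633 CPM in all 6 bins.

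**Figure D4:**
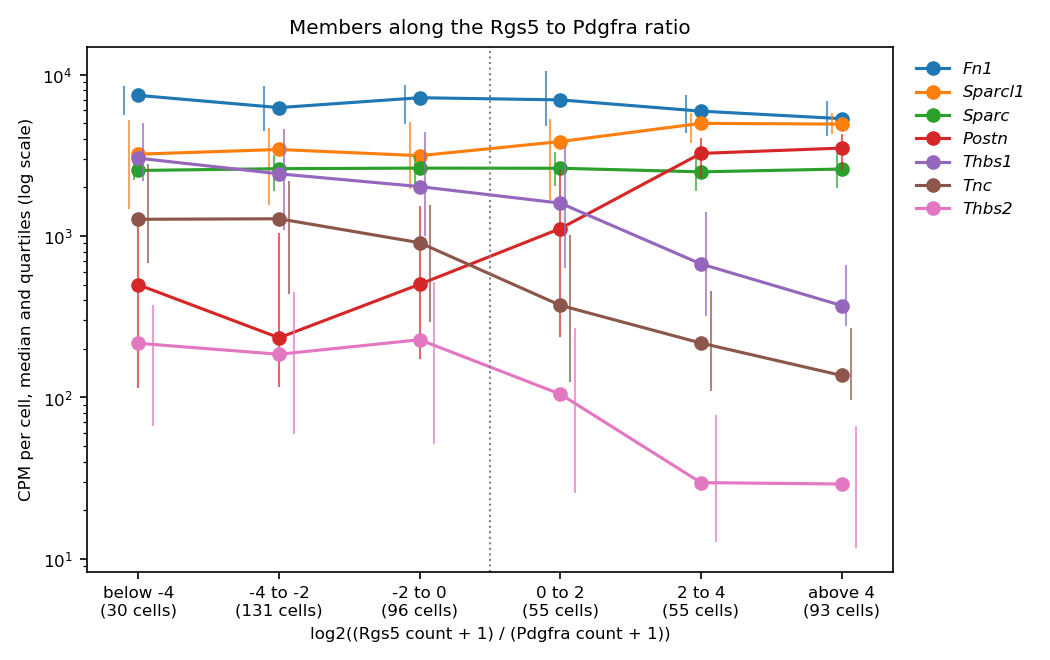
Median CPM per cell (log axis; vertical lines between quartiles) of 7 members in 6 bins of the log2 ratio of Rgs5 to Pdgfra counts, with the number of cells under each bin and the class limit as a dotted line. Postn lies at 3246 and 3503 CPM in the last 2 bins, Thbs1 goes from 3032 to 371.1 CPM across the bins, and Sparc is flat.

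Across all cells the members did not vary as a single block. Of their 36 pairs, 20 had a Spearman correlation of CPM above 0, against 60.7% of all pairs of the 7044 genes detected in at least 50% of cells. The median was 0.0901 over member pairs and 0.0162 over all pairs. In size the correlations were large: 8 pairs reached 0.3 in either direction, all among the 7 members of at least 200 mean CPM, which form 21 pairs. Of all pairs among the 992 genes of at least 200 mean CPM, 3.78% did so (0.313% of pairs of the 7044 genes). Those genes are not matched to the members in level. By mean CPM over all genes Fn1, Sparcl1, Sparc, Thbs1, Postn and Tnc ranked 3, 7, 13, 23, 33 and 89. Cells share a single sample and depth enters every value, so the correlations are descriptions. Tnc with Thbs1 stood at 0.498, Fn1 with Sparcl1 at 0.484, Tnc with Thbs2 at 0.362, Fn1 with Thbs1 at 0.350 and Thbs1 with Thbs2 at 0.334. Postn ran against Tnc (-0.369) and Thbs1 (-0.357), and Sparcl1 against Tnc (-0.301). Without the posterior cells Fn1 with Sparcl1 was 0.452, and within the columns low in Sftpc Postn with Tnc was -0.554.

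Much of this pattern changed within the classes. Of the 36 pairs, 21 were above 0 in the Rgs5 class and 27 in the rest, beside 58.1% of all gene pairs in each. Each class had 4 pairs of 0.3 or more in size, where 2.03% and 3.11% of pairs of genes of at least 200 mean CPM did so (0.185% and 0.296% of pairs of the 7044 genes). These shares are again from genes not matched to the members in level. Tnc with Thbs1 held at 0.337 and 0.321. Fn1 with Sparcl1 was 0.363 in the Rgs5 class and 0.672 in the rest, where Sparc with Sparcl1 also reached 0.420 and Fn1 with Sparc 0.342. Tnc with Thbs2 was 0.375 in the Rgs5 class and 0.0843 in the rest. The opposition of Postn was weak within a class: with Tnc it was -0.153 and -0.0276, and with Thbs1 -0.223 and 0.00845. Differences between classes in these correlations were not tested.

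**Figure D5:**
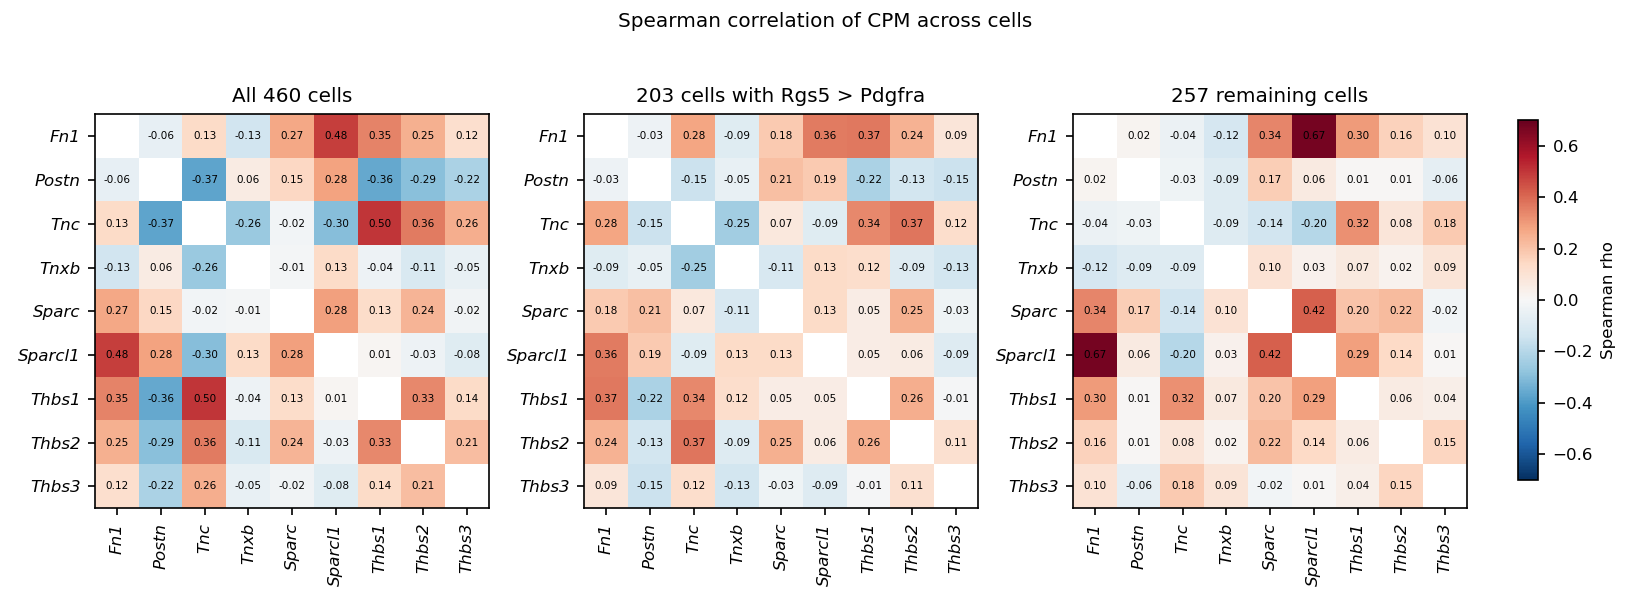
Spearman correlation of CPM between members across all 460 cells, across cells with Rgs5 above Pdgfra and across the rest (red positive, blue negative, values printed, diagonal left white). Over all cells the block of Tnc, Thbs1 and Thbs2 stands out, as do the blue values of Postn with Tnc, Thbs1, Thbs2 and Thbs3. Postn is positive there with Sparcl1 (0.281), Sparc (0.147) and Tnxb (0.060). Fn1 with Sparcl1 reaches 0.672 in the rest.

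The genes most like each member in pattern were sought among 7035 genes detected in at least 50% of cells. Fn1 was closest to Fbn1 (0.593; fibrillin 1), Lrp1 (0.522; an endocytic receptor) and Bgn (0.515; biglycan), and these held in both classes at 0.405 or more. Sparc was closest to the collagen genes Col1a1 (0.488), Col1a2 (0.476) and Col3a1 (0.467), with 0.652, 0.654 and 0.560 in the rest. Postn was closest to Slc12a2 (0.695; an ion cotransporter), Mcam (0.685; a pericyte adhesion molecule) and F2r (0.685; a thrombin receptor), at 0.361 to 0.575 within the classes, and farthest from Igfbp4 (-0.571). Sparcl1 was closest to Serping1 (0.507; the C1 inhibitor), Pdgfrb (0.4998; a mural and fibroblast receptor) and Gpx3 (0.496), and farthest from the protease gene Htra1 (-0.482). Within the classes the 3 closest genes of Sparcl1 stood at 0.322 to 0.626 and Htra1 at -0.318 and -0.524.

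Tnc was closest to Cdh11 (0.530; a mesenchymal cadherin), Hmcn1 (0.503; hemicentin 1) and Palld (0.492; an actin-bundling protein), and farthest from Rgs4 (-0.490). In the Rgs5 class and the rest these were 0.428 and 0.163 for Cdh11, 0.277 and 0.445 for Hmcn1, 0.355 and 0.226 for Palld, and -0.3195 and -0.0934 for Rgs4, all smaller in size than over all cells. Thbs1 was closest to P4ha3 (0.589; a collagen prolyl hydroxylase subunit), Skil (0.588; a TGF-beta target that encodes a SMAD repressor) and Col1a2 (0.566), and farthest from Pdzd2 (-0.555). Within the classes its 3 closest genes stood at 0.344 to 0.4596 and Pdzd2 at -0.487 and -0.232. Thbs2 was closest to Col1a2 (0.483), Hmcn1 (0.458) and Col1a1 (0.452), and farthest from Pcdh1 (-0.438). Within the classes its 3 closest genes stood at 0.221 to 0.390 and Pcdh1 at -0.178 and -0.236. The sparse members had weak neighbours: Tnxb had Nfia (0.266), Tns1 (0.259) and Heg1 (0.257), with Robo2 lowest (-0.308), and Thbs3 had Ptch1 (0.262), Fgfr2 (0.248) and Serpina3n (0.234), with Epas1 lowest (-0.293). For Fn1 and Sparc the lowest were Coro2b (-0.428) and Slc2a3 (-0.288).

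Genes that mark other divisions of these cells ran with different members. Dcn, the decorin gene, correlated with Thbs1 at 0.461, Thbs2 at 0.374 and Sparc at 0.338, and with Postn at -0.300. Dcn itself differs between the classes, and within the Rgs5 class and the rest these values were 0.244 and 0.303 for Thbs1, 0.318 and 0.148 for Thbs2, 0.284 and 0.431 for Sparc, and -0.147 and 0.0494 for Postn. Acta2, for smooth muscle actin, correlated with Thbs1 at 0.449, and at 0.410 in the Rgs5 class and 0.341 in the rest. Cxcr4, a chemokine receptor gene, correlated within the Rgs5 class with Postn at 0.339 and with Fn1 and Thbs1 at -0.510 and -0.514. In the rest these values were 0.0591, 0.0426 and -0.0862. With the proliferation gene Mki67 the members stood between -0.0451 and 0.0505. The sum of immediate early genes, which are known to respond to tissue dissociation, correlated with Thbs1 at 0.364 (0.435 in the rest, 0.234 in the Rgs5 class) and with the other members between -0.119 and 0.188. Its part in the level of Thbs1 was not tested. The total count of a cell correlated with Sparcl1 at -0.383, Fn1 at -0.274, Postn at -0.239 and Tnc at 0.277. The share of counts from mitochondrial genes had medians of 2.45% in the Rgs5 class and 2.04% in the rest. Over all cells this share correlated with Thbs1 at -0.313, Tnc at -0.281, Sparcl1 at 0.215 and Postn at 0.214. With the other members it stood between -0.185 and 0.0835. Its part in the class differences was not tested. The epithelial sum stood between -0.105 and 0.155 with all members and the leukocyte sum between -0.139 and 0.0804.

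The 11 cells with posterior Hox genes had low levels of several members. Fn1 ran from 1139 through a median of 2114 to 3562 CPM in them, beside a median of 6301 CPM in all other cells. Sparcl1 ran from 242.8 through 435.5 to 1782 CPM, beside 4099 CPM, and Postn from 72.8 through 157.8 to 1326 CPM, beside 1355 CPM. Sparc, with medians of 2465 and 2589 CPM, was similar. Without these cells the ratios between the classes were 2.85 for Postn, 0.277 for Tnc, 3.64 for Tnxb, 0.424 for Thbs1 and 0.451 for Thbs2.

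The other matricellular genes leaned to the rest. Of 22 such genes of at least 10 mean CPM, 0 were at least 2-fold higher and 9 at least 2-fold lower in the Rgs5 class, beside 3.4% and 4.79% of all genes, with a median ratio of 0.647 beside 1.006. The list was chosen with results of these data known, as were the next 3, and it is not independent evidence of a direction. Tgfbi, a fasciclin-domain relative of periostin induced by TGF-beta, had means of 126.8 and 615.5 CPM, a ratio of 0.207 and so opposite in direction to Postn. Tnn, for tenascin N, stood at 2.93 and 16.9 CPM (ratio 0.220) and Aebp1, for a collagen-binding protein, at 176.5 and 379.6 CPM (0.466). Fstl1 (1157 and 1935 CPM; a SPARC-family follistatin-like protein) and Cyr61 (1029 and 1559 CPM; a CCN protein) were abundant with ratios of 0.598 and 0.661. Mfge8 (425.1 and 249.7 CPM) and Edil3 (44.3 and 25.03 CPM), related genes for integrin-binding proteins, had the highest ratios among the 22 at 1.70 and 1.74. Below 10 mean CPM, and named after their values were seen, Vtn (13.7 and 0.402 CPM; vitronectin) and Smoc1 (13.1 and 5.15 CPM; a SPARC-family protein) had ratios of 10.5 and 2.29, and Comp (0.528 and 14.3 CPM; a thrombospondin) had 0.1001.

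The receptors of these proteins passed 2-fold about as often as genes in general. Of 18 receptor genes of at least 10 mean CPM, 1 was higher and 1 lower by 2-fold, beside 3.4% and 4.79% of all genes, with a median ratio of 0.928 beside 1.006. Lrp1 (2077 and 2597 CPM), Itgb1 (763.05 and 689.6 CPM; integrin beta 1), Ddr2 (527.1 and 588.7 CPM; a collagen receptor), Itgav (320.3 and 401.2 CPM) and Itgb5 (286.8 and 305.1 CPM; both subunits of RGD-binding integrins) led the list, with ratios from 0.799 to 1.11. Itgb8, a partner of Itgav in TGF-beta activation, stood at 33.2 and 83.9 CPM (ratio 0.403). Stab1, a scavenger receptor gene of macrophages and endothelium, stood at 19.7 and 3.51 CPM (ratio 4.596) and was counted in 11.5% of cells. Leukocyte markers summed to means of 330.1 and 164.5 CPM in the same classes, and their part in the value of Stab1 was not tested. Itga9, a tenascin C receptor subunit, was at a ratio of 0.534, and Cd36, a thrombospondin receptor gene, at 1.87 with 13.9 and 7.003 CPM.

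Among enzymes that cut or crosslink these proteins, 1 of 14 was higher and 6 were lower by 2-fold, beside 3.4% and 4.79% of all genes, with a median ratio of 0.717 beside 1.006. Tgm2, for the transglutaminase that crosslinks fibronectin, stood at 180.1 and 85.9 CPM (ratio 2.08). Mmp3 (3.05 and 38.4 CPM, ratio 0.103), Plau (12.5 and 46.1 CPM, 0.286), Mmp2 (183.1 and 534.9 CPM, 0.344) and Htra1 (306.2 and 817.7 CPM, 0.375) were lower. Plat, Mmp14 and Ctsb, for tissue plasminogen activator, a membrane metalloproteinase and cathepsin B, had ratios of 1.04, 1.18 and 0.972.

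Of 16 collagen and proteoglycan genes, to which a few elastic fibre genes are counted, that share the matrix with these proteins, 0 were higher and 6 were lower by 2-fold, beside 3.4% and 4.79% of all genes, with a median ratio of 0.578 beside 1.006. Lum (8.60 and 119.7 CPM, ratio 0.0796; lumican) and Dcn (249.5 and 1432 CPM, 0.175) had the lowest ratios. Bgn, Col1a2, Col1a1 and Col3a1 had ratios of 0.688, 0.550, 0.607 and 0.535. Col4a1, a basement membrane collagen gene, had 2781 and 1392 CPM and a ratio of 1.997, just short of 2-fold, and Fmod, for fibromodulin, had the next highest ratio at 0.799. Dcn, Lum, Col1a1, Col1a2, Col3a1 and Mfap5 are also in the fibroblast list, so this list overlaps the markers that differ with the class rule.

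The members lie on 7 chromosomes of GRCm38 (GENCODE vM21, gene body, 1-based). Fn1 is at chr1:71585520-71653200 and Sparc at chr11:55394500-55423183, both on the minus strand. Postn is at chr3:54361109-54391037 and Thbs3 at chr3:89215180-89226837, on the plus strand. Tnc is at chr4:63959785-64047015 and Sparcl1 at chr5:104079111-104113733, on the minus strand, and Thbs1 at chr2:118111876-118127133, on the plus strand. Tnxb is at chr17:34670535-34719815 on the plus strand and Thbs2 at chr17:14665500-14694235 on the minus strand. Exons of Fn1, Tnc and Thbs1 overlap a transcript on the other strand over 2.5%, 2.26% and 3.43% of their exonic length.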

How the data were processed

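Single-cell RNA-seq of 460 cells was used. The genotype of the strain is not reported here. The authors deposited molecular barcode counts as whole numbers per gene and cell. STAR, HTSeq and mm10 are named per the submitters' processing notes; how reads became counts is not given in the sources used here. Counts were divided by each cell's total (CPM) for levels and correlations. All 460 columns were used, none identical to another, and no search for doublets was made. Where several genes shared a symbol (113 symbols), it went to the most counted. Exonic lengths came from GENCODE vM21, which matched 48058 gene identifiers. The members and lists were chosen with earlier results of these data known. Named genes are the members, the 3 closest and the farthest gene of each, and from each list the 5 most abundant and the 2 highest and 2 lowest ratios. The computation of ratios and correlations was run on simulated counts with planted changes. That run checks the computation only and does not bear on the calls reported. Alternatives changed the cells kept, depth, normalization (scran 1.30.0), class rule, summary, added CPM, fold, correlation and detection limit. A column counted as low in Sftpc when over 50% of its 20 neighbours in the table were below 30 CPM; posterior cells had at least 500 CPM over Hox paralog groups 9 to 13. Software was R 4.3.3 and Python 3.11.15 with pandas 2.3.3, scipy 1.17.1 and numpy 2.4.6.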

Additional observations from a re-analysis of the deposited data

How the results depend on the processing

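The number of members past 2-fold was 4 to 6 in the 14 alternatives against 5 as reported, and it was 6 at thinned depth, with medians in place of means, and at a fold of 1.5. Over all genes the number past the limit was 804 and became 1547 with medians (21.7% of these were higher in the Rgs5 class, against 41.5%), 1873 with every gene that had a count and 1630 at a fold of 1.5. Postn, Tnc and Tnxb were past 2-fold in all 12 alternatives that gave a ratio, with ranges of 2.84 to 8.93, 0.174 to 0.306 and 3.27 to 8.63. Thbs1 (0.246 to 0.510) missed it only within the columns low in Sftpc, and Thbs2 (0.175 to 0.524) only with the class rule on thinned counts. Thbs3 (0.0801 to 0.697) passed in 3. Medians gave the highest ratio of Postn and Sparcl1 and the lowest of Fn1, Tnc, Thbs1, Thbs2 and Thbs3. Of the 36 pair correlations, 11 had another sign within the rest than over all cells and 5 within the Rgs5 class, among them Postn with Thbs1 (0.00845) and Thbs2 (0.00655) within the rest; the cause was not tested. The number of positive pairs was 19 to 27 against 20, and members detected in at least 90% of cells were 6 or 7. The analysis restricted to the columns low in Sftpc, and summed counts for levels, were chosen after seeing the data. Low counts limit Tnxb and Thbs3. No paired analysis was possible because there is 1 group.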
